A study of Ovis aries with 26 samples.

Results

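Pancreas from 3 CFTR-/- sheep fetuses (CF 1, CF 2 and CF 3) was compared with pancreas from 4 control fetuses (WT 1, HZ 2, WT 3 and HZ 4), all collected at 80 days of gestation and profiled by droplet single-cell RNA sequencing. These 7 of the 26 samples in the series were taken by their labels, and their barcodes were kept when they held over 200 and under 6000 genes and under 25% of UMIs (unique molecular identifiers, 1 per captured transcript) from mitochondrial genes. This left 16261 cells. The question was how the lineages of the fetal pancreas other than duct, namely acinar, endocrine, endothelial, immune and glial cells, differed between the genotypes, with the animal as the replicate.

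All 7 animals were male by their labels. The CF fetuses were clones made by somatic cell nuclear transfer from a single fibroblast line in which both CFTR alleles had been disrupted by targeting exon 2, and CF 2 and CF 3 came from the same pregnancy. The WT fetuses were CFTR+/+ and the HZ fetuses CFTR+/-, carrying 1 allele disrupted in exon 11, and the study treated both as wild type. All 4 controls were naturally conceived, and HZ 2, WT 3 and HZ 4 were triplets to which WT 1 did not belong. Loss of CFTR, cloning, the genetic background of the donor line and the pregnancy cannot be told apart in this design. The tissue was digested with collagenase or with Liberase TL, an enzyme blend, and the libraries were made with either of 2 versions of the reagent kit. Which animals received which is not given in the sources used here, so that neither could be set against the groups.

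Acinar cells make the digestive enzymes of the pancreas and empty them into ducts, where CFTR, an apical anion channel, moves chloride and bicarbonate into the juice and keeps it fluid. Endocrine cells, which bud from the same epithelium, make the islet hormones. Vessels, resident macrophages, lymphocytes and the glia (Schwann cell lineage) of the pancreatic nerves lie around the epithelium, and exocrine tissue lost in cystic fibrosis is replaced by fat and fibrous tissue.

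Total UMIs ranged from 28859706 to 57264631 per library, with 1257 to 3183 cells kept and a median of 10077 to 16416 UMIs per kept cell. Ribosomal protein genes took 19.4 to 23.6% of UMIs in the CF libraries and 26.6 to 28.9% in the control libraries, without overlap, and were left out of the tests. No pair of libraries shared more than 7 kept barcodes. Each lineage was gated on fixed marker genes, which were never tested, and the UMIs of its cells were summed per animal. In tissue suspensions of this kind fewer cells of a type and poorer release of that type cannot be told apart.

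CFTR itself was counted in every library. The kept cells held 1624, 3672 and 5674 CFTR UMIs in CF 1, CF 2 and CF 3 and 1967, 462, 529 and 850 in WT 1, HZ 2, WT 3 and HZ 4, most of them in gated duct cells. In duct cells CFTR stood at 511, 611 and 713 CPM (UMI counts scaled by library size and TMM, here and throughout without ribosomal protein genes) against 479, 256, 366 and 208, a log2 fold change (CF over control) of 0.90 (SE 0.252, edgeR adjusted p = 0.0440). CFTR transcripts were thus counted in all 3 CF animals. Because the libraries count the 3′ end, which lies outside the targeted exon, this level does not check the genotype. CFTR did not pass the test in acinar or endocrine cells, with log2 fold changes of 0.09 and 0.03.

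Acinar and endocrine shares overlapped between the groups and had larger SDs among the CF fetuses. Acinar cells made up 7.28%, 30.3% and 13.7% of kept cells in CF 1, CF 2 and CF 3, and 41.0%, 28.5%, 26.5% and 27.0% in WT 1, HZ 2, WT 3 and HZ 4. The CF mean was 17.1% ± 11.9 (SD, n = 3) against 30.8% ± 6.88 (SD, n = 4), and the groups overlapped through CF 2 (exact two-sided permutation test over animals, p = 0.229, adjusted p = 0.808 over the 11 classes). Endocrine cells were 6.64%, 13.8% and 22.7% of CF cells (SD 8.02, n = 3) and 13.5%, 19.3%, 16.2% and 18.8% of control cells (SD 2.67, n = 4), a difference within the spread of the animals (exact permutation p = 0.629).

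Glial and duct cells were the 2 classes whose shares of all kept cells did not overlap, and the duct shares overlapped once acinar cells were left out of the total. Glial cells, gated on genes such as SOX10 and CDH19, made up 11.7%, 2.03% and 6.60% of CF cells and 1.09%, 0.477%, 0.781% and 0.592% of control cells. Duct cells were 12.5%, 17.4% and 21.3% against 12.1%, 7.96%, 6.12% and 10.6%. Both gave an exact permutation p of 0.0571, the smallest that 3 animals against 4 allow, and an adjusted p of 0.314. Because a lower acinar share raises every other share, shares were also taken of the cells that were not acinar, chosen as a check after the data were seen. The glial share was then 12.7%, 2.91% and 7.64% against 1.85%, 0.667%, 1.06% and 0.812%, again with an exact permutation p of 0.0571. The duct share was then 13.5%, 24.9% and 24.7% against 20.6%, 11.2%, 8.33% and 14.6%, with CF 1 below WT 1 and HZ 4 (exact permutation p = 0.171). Immune cells, at 11.6%, 10.8% and 5.44% against 2.77%, 4.61%, 13.7% and 11.2% (exact permutation p = 0.743), and endothelial cells (exact permutation p = 0.8) overlapped between the groups.

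**Figure D1:**
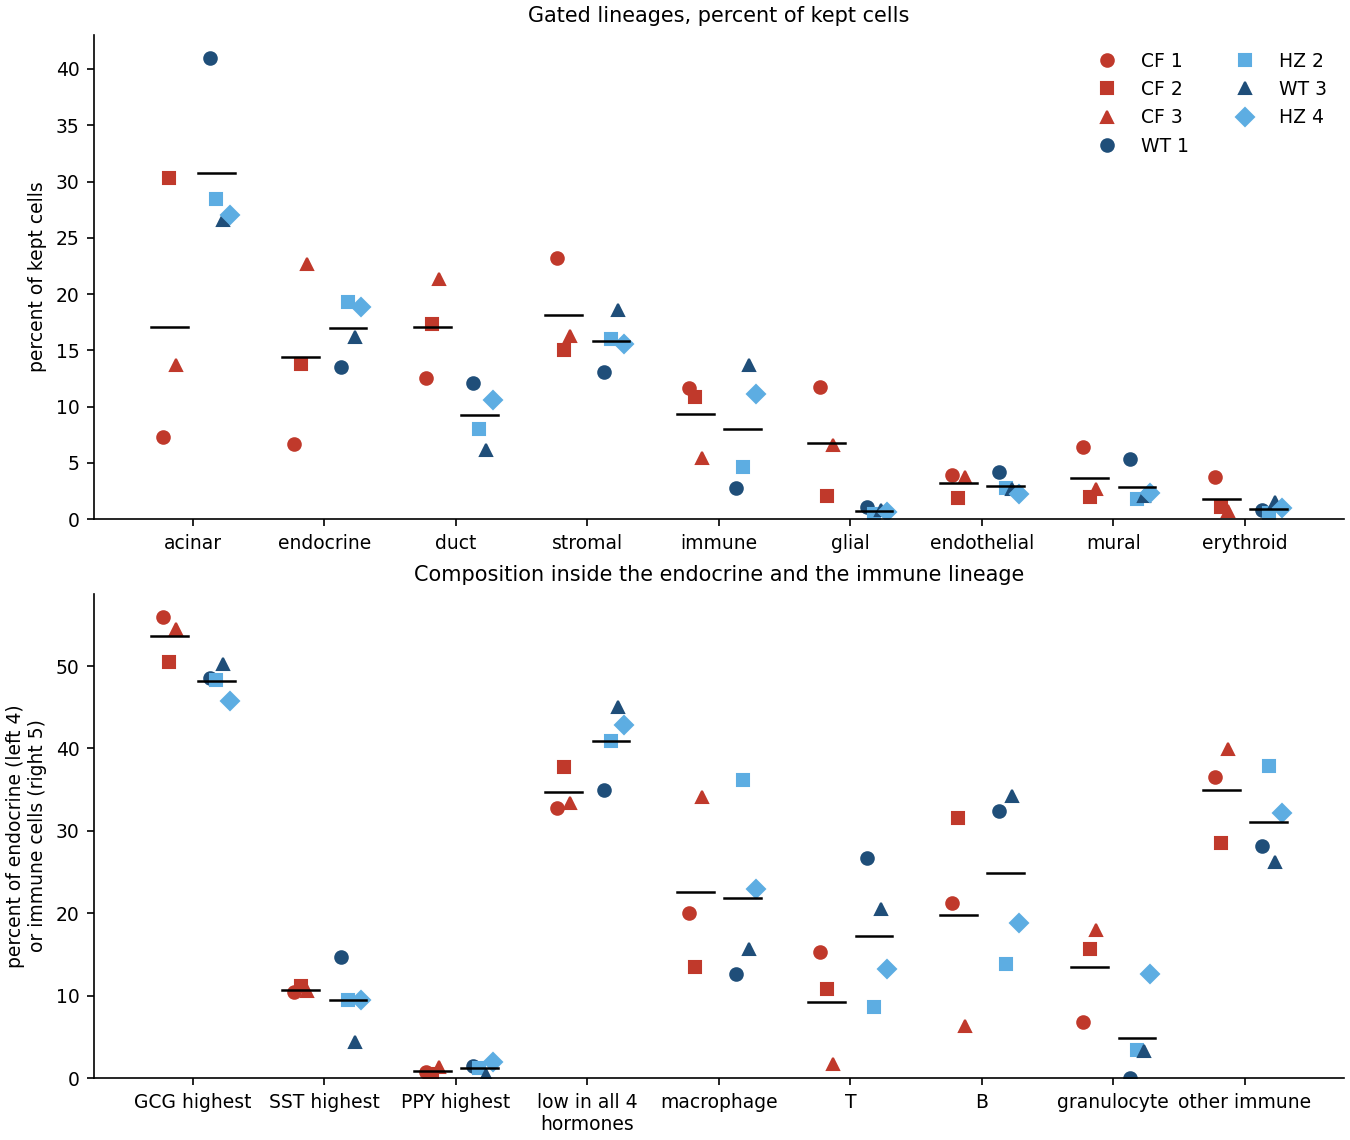
Share of kept cells in each gated lineage (upper panel, percent of kept cells) and of each subclass within the endocrine or immune cells (lower panel, percent), 1 point per animal with the group mean as a bar, CF in red and controls in blue. Glial, duct and GCG-highest points separate by group, whereas acinar, endothelial and immune points overlap.

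Within the endocrine lineage, the share of glucagon cells did not overlap between the groups but did not pass the test after adjustment. Cells with GCG (glucagon) as the highest of the 4 measured hormones were 56.0%, 50.5% and 54.5% of CF endocrine cells and 48.6%, 48.3%, 50.2% and 45.8% of control endocrine cells, with an exact permutation p of 0.0571 and an adjusted p of 0.229. Cells low in all 4 hormones, a class that can hold beta cells because INS was not analysed here, were 32.8%, 37.8% and 33.4% against 34.97%, 40.9%, 44.98% and 42.8% (exact permutation p = 0.114, adjusted p = 0.229). Granulocyte-like cells were 6.81%, 15.6% and 17.9% of CF immune cells and 0%, 3.45%, 3.33% and 12.7% of control immune cells (exact permutation p = 0.114, adjusted p = 0.571). The 0% in WT 1 was 0 of 71 immune cells, which allows a share of up to 4.23%. Macrophage, T cell and B cell shares overlapped, and so did the shares of dividing cells among acinar, endocrine, endothelial and immune cells, with exact permutation p-values of 0.171 and above. Dividing glial cells were 10 of 237, 4 of 54 and 19 of 210 in the CF animals and 0 of 28, 1 of 6, 1 of 12 and 1 of 18 in the controls, and dividing T cells 4 of 36, 3 of 31 and 0 of 3 against 1 of 19, 2 of 5, 0 of 43 and 0 of 45, so that too few animals held 20 of these cells for a comparison.

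The acinar lineage showed the most changed genes outside duct. Of 11696 genes tested with edgeR's quasi-likelihood test, 329 rose in CF acinar cells (2.81%) and 265 fell (2.27%) at a Benjamini-Hochberg adjusted p of at most 0.05. In endocrine cells 87 of 12379 genes rose (0.703%) and 63 fell (0.509%). In all immune cells 19 of 9683 genes rose (0.196%) and 4 fell (0.0413%), and in macrophages 19 of 5623 rose (0.338%) and 6 fell (0.107%). In endothelial cells 1 of 7012 genes rose (0.0143%) and 2 fell (0.0285%). For context, 1288 of 11731 genes changed in duct cells (11.0%), 162 of 11050 in stromal cells (1.47%) and 0 of 6457 in mural cells (0%), where edgeR gave 240 genes at an unadjusted p under 0.05 and none after adjustment. Cells per animal ranged from 147 to 1052 for acinar and from 35 to 120 for endothelial cells, so that the counts of changed genes are not comparable between lineages. On simulated counts for 11908 genes the acinar test recovered 65.3% of 4-fold and 5.1% of 2-fold changes, and on 6918 genes the endothelial test recovered 64.7% and 3.16%. The simulation gave every gene the same fixed spread between animals, which was not estimated from these data. It therefore does not set the limit of the real tests. In the main acinar fit NR5A2 passed with a log2 fold change of 0.60 (SE 0.131).

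Heat-shock genes were higher in CF acinar, endocrine, immune and glial cells and macrophages than in the same cells of the controls. Heat-shock proteins are chaperones that refold damaged proteins, and their genes are induced by heat and by other kinds of stress. BAG3, a co-chaperone of the HSP70 proteins, stood at 977, 636 and 697 CPM in acinar cells of CF 1, CF 2 and CF 3 and at 45.1, 74.7, 43.3 and 38.3 CPM in WT 1, HZ 2, WT 3 and HZ 4. This is a 15.3-fold difference with all CF animals above all controls (log2 fold change 3.94, SE 0.263, adjusted p = 0.000137). BAG3 was also at 192, 73.9 and 71.4 CPM against 15.0, 24.8, 12.6 and 10.5 CPM in endocrine cells (log2 fold change 2.83, adjusted p = 0.00902). In immune cells it was at 2697, 1172 and 1161 CPM against 174, 53.2, 76.7 and 90.1 CPM (log2 fold change 4.11, adjusted p = 0.00694). CF 1 was the highest CF animal in these 3 lineages. The acinar call held under all 15 alternatives, the endocrine value was 2.24 without CF 1 and its call was lost against the WT controls alone (2.99) and among the low-hormone cells alone (2.21), and the immune call was lost without WT 3 (4.00) or against the WT controls alone (3.77).

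The rise was spread over the cells of each animal. At least 1 BAG3 UMI was seen in 59.2%, 74.0% and 71.0% of CF acinar cells against 41.3%, 37.4%, 24.5% and 24.7% of control acinar cells, although the median CF acinar cell held fewer UMIs (11845 to 24508 against 24965 to 32783). In endocrine cells these shares were 64.2%, 42.9% and 39.8% against 15.0%, 15.3%, 10.4% and 8.04%, and in immune cells 78.3%, 64.2% and 61.8% against 25.4%, 32.8%, 31.9% and 22.1%. The stromal cells of the same libraries did not separate by group, with 77.4%, 45.1% and 43.7% against 44.2%, 60.7%, 44.9% and 30.9%.

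A set of 15 heat-shock genes, put together after the values had been seen, is given here as a description. Of its members tested, 14 of 15 rose in acinar cells, 6 of 15 in endocrine cells, 12 of 14 in immune cells, 12 of 12 in macrophages and 1 of 11 in endothelial cells. It also rose for 9 of 15 in duct cells, for 0 of 14 in stromal cells and for 0 of 12 in mural cells. The median log2 fold change of these members was 2.17 in acinar, 0.95 in endocrine, 2.79 in immune and 2.07 in endothelial cells, against medians over all genes tested between -0.02 and 0.04. It was 1.24 in duct, 1.28 in stromal and 0.35 in mural cells, and whether the lineages differ was not tested. HSPA6, HSPA1A, HSPA1B and HSPA1L are closely similar genes whose reads can be split between copies, so the level of each alone is uncertain.

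A list of genes that respond to tissue dissociation, which shares many of these heat-shock genes and adds immediate-early genes, was also higher as a share of all UMIs. Its members took 2.34 to 3.71% of CF acinar UMIs and 0.833 to 1.27% of control acinar UMIs, 1.63 to 1.92% against 1.02 to 1.28% in endocrine cells, and 3.81 to 4.04% against 1.39 to 2.08% in immune cells. Of its genes tested, 13 of 25 rose in acinar cells (median log2 fold change 0.94), 3 of 25 in endocrine cells (0.15), 7 of 25 in immune cells (0.46), 9 of 24 in macrophages (0.76) and 1 of 24 in endothelial cells (0.31), and 0 fell. In endocrine, immune and endothelial cells and macrophages every one of these rises was a heat-shock gene already counted above. No immediate-early gene of the list passed there, whereas FOS, JUNB, EGR1 and IER2 rose in acinar cells. FOS, an immediate-early transcription factor, stood at 3496, 6018 and 3961 CPM in CF acinar cells and at 1763, 1147, 1535 and 1430 CPM in control acinar cells (log2 fold change 1.61, adjusted p = 0.00399). Which digestion each animal received is not given. This list moved with genotype beside every gene group reported for these lineages, and its part in the other results was not tested.

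**Figure D2:**
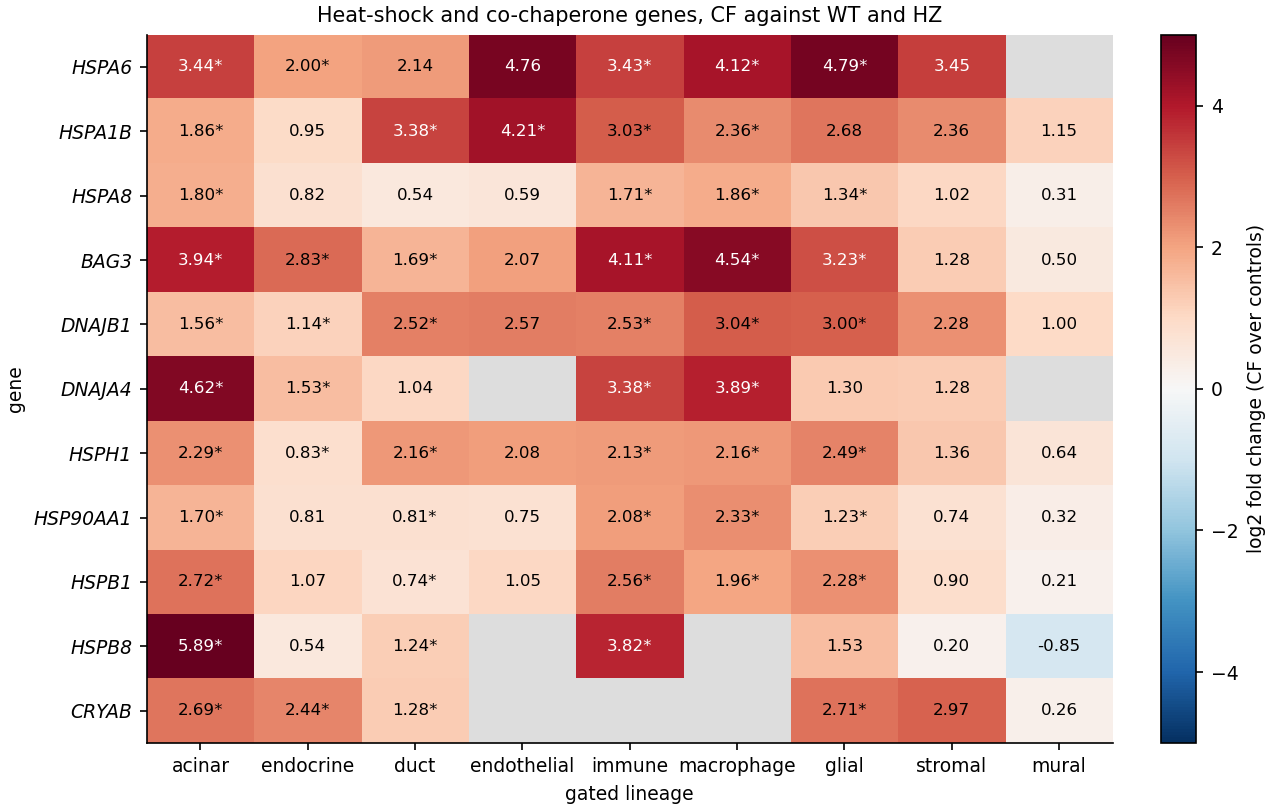
Log2 fold change (CF over control, colour and number) of 11 heat-shock genes in each gated lineage, with * where the edgeR adjusted p was at most 0.05 and grey where a gene was not tested, and with the glial column from the fit with at least 10 cells per animal. The genes rose together in acinar and immune cells and in macrophages, and none passed the test in stromal or mural cells.

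Digestive enzymes did not move together in CF acinar cells. CTRC (chymotrypsin C, a protease that regulates trypsin) stood at 2380, 1626 and 3771 CPM in CF 1, CF 2 and CF 3 and at 647, 263, 463 and 673 CPM in WT 1, HZ 2, WT 3 and HZ 4. It was 5.07-fold higher, with no overlap (log2 fold change 2.34, SE 0.354, adjusted p = 0.00640), and passed the test under all 15 alternative settings and left-out animals. KLK1, a kallikrein protease, rose by 0.96 on the log2 scale and PLA2G1B, the pancreatic phospholipase, by 1.28. The call for PLA2G1B (adjusted p = 0.0484) was lost without any of CF 1, CF 2, CF 3, HZ 2 or HZ 4, against the WT controls alone and with the stricter gate. REG1A, a secreted lectin of the acinar granule, fell by 1.48 on the log2 scale, and PDIA2, the pancreatic disulfide isomerase, fell by 1.33. The KLK1 call was lost without CF 3, that of REG1A without CF 2 or CF 3, that of PDIA2 without any of CF 1, CF 2, CF 3, HZ 2 or WT 3, and all 3 against the WT controls alone. Of the 21 enzymes and secretory products tested, CTRC, KLK1 and PLA2G1B rose, REG1A and PDIA2 fell and 16 did not pass the test, with a median log2 fold change of -0.24 against -0.02 over all genes.

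In acinar cells 2 of the 7 listed acinar transcription factors tested rose and 1 chaperone of the secretory pathway fell. Over all acinar genes 2.81% rose and 2.27% fell. NR5A2, a nuclear receptor that drives acinar genes, rose by 0.60 on the log2 scale (126, 151 and 132 CPM against 100.2, 79.0, 91.6 and 90.7) and its partner NR0B2 by 0.91, the 2 of 7 acinar factors tested that passed. Of 23 chaperones and unfolded protein response genes of the endoplasmic reticulum, 0 rose and 1 fell, DNAJB9, at 237, 143 and 201 CPM against 380, 376, 377 and 282 CPM (log2 fold change -0.87, adjusted p = 0.0358). The calls for NR5A2, NR0B2 and DNAJB9 were each lost without CF 2, CF 3 or HZ 2 and against the WT controls alone. The median of this list was -0.33, against 2.17 for the heat-shock genes tested in the same cells. No cell-division gene passed the test in acinar cells (0 of 16), nor did any of 42 nuclear genes of the respiratory chain or of 21 cholesterol synthesis genes.

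Genes of hypoxia and glycolysis were mixed. DDIT4, an inhibitor of mTORC1 induced by low oxygen and other stress, rose from 16.3, 6.62, 5.74 and 6.76 CPM in controls to 61.4, 29.7 and 32.1 CPM in CF acinar cells (log2 fold change 2.06, adjusted p = 0.0156), and the glycolytic enzymes HK1 (1.05) and ALDOA (0.63) rose with it. CA9, the hypoxia-induced carbonic anhydrase, fell by 1.78 on the log2 scale, and the glucose transporter SLC2A1 fell by 0.81. In all, 3 of 21 rose and 2 fell, and all 5 calls were lost against the WT controls alone, those of HK1, ALDOA and SLC2A1 also without CF 3. IRF1, an interferon-induced transcription factor, was the 1 of 19 interferon genes that passed, at 3.87, 7.54 and 7.002 CPM against 0.163, 0.588, 0.930 and 0.531 CPM (log2 fold change 3.79, adjusted p = 0.00250). Over all acinar genes 2.81% rose and 2.27% fell, so that 1 call does not set the interferon list apart. VEGFC, a growth factor of lymphatic vessels, rose by 1.45 on the log2 scale at low levels, a call lost without CF 2, CF 3 or HZ 4 and against the WT controls alone.

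Genes with a symbol, no overlap between groups and a mean of at least 10 CPM in the higher group were ranked by their rise in acinar cells. Beside the heat-shock genes HSPB8, DNAJA4, HSPA6 and BAG3, those that rose most were UCHL1 and FMOD. IRF1, given above, rose more but lay below that level. UCHL1, a neuronal and endocrine deubiquitinase, stood at 40.4, 21.2 and 32.6 CPM against 3.17, 1.91, 2.02 and 4.02 CPM (log2 fold change 3.36, adjusted p = 0.000460). UCHL1 was far higher in the duct cells of the same CF animals, at a mean of 810 CPM against 20.3 CPM in controls, and the part of free duct RNA in its acinar level was not tested. FMOD, a small matrix proteoglycan, was at 8.29, 6.10 and 16.8 CPM against 1.22, 1.03, 0.620 and 1.29 CPM (log2 fold change 3.25, and 2.66 without CF 3). Its level in stromal cells was 83.1 CPM in CF and 53.1 CPM in controls. NNAT, an imprinted gene, was the 1 of 18 imprinted growth genes that rose (log2 fold change 1.67), while 16 of the 18 were fitted higher in CF, with a median of 0.52. Of all acinar genes 2.81% rose, so that 1 call does not set this list apart.

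Within the same limits of symbol, overlap and level, the genes that fell most in CF acinar cells were MT2A, FUOM, LGALS3, FXYD3, A1BG and CLDN18. FXYD3, a small regulator of the sodium pump, stood at 70.8, 42.3 and 37.5 CPM against 284, 376, 486 and 344 CPM (log2 fold change -2.93, SE 0.271, adjusted p = 0.000618), and it also fell in duct cells, by 1.72 on the log2 scale. CLDN18, a tight-junction claudin, was at 13.3, 9.04 and 12.02 CPM against 69.0, 53.2, 71.2 and 53.3 CPM (log2 fold change -2.49, adjusted p = 0.000292). LGALS3, a galectin, was at 16.0, 6.85 and 9.25 CPM against 115, 25.7, 54.3 and 113 CPM (adjusted p = 0.0134). FXYD3, CLDN18 and FUOM passed the test under all 15 alternatives, and LGALS3 in all but those that left out CF 2 or CF 3.

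MT2A, a metallothionein that binds zinc and copper, had the largest fall and the widest spread of these genes. It stood at 109, 5.07 and 7.002 CPM in CF 1, CF 2 and CF 3 and at 227, 1918, 1258 and 841 CPM in WT 1, HZ 2, WT 3 and HZ 4. WT 1 was the lowest control and CF 1 the highest CF animal. The log2 fold change was -4.89 (SE 1.18, adjusted p = 0.0464), the call was lost without CF 2 (-4.29), CF 3 (-4.32), HZ 2 (-4.43), WT 3 (-4.80) or HZ 4 (-4.98) and against the WT controls alone (-4.37), and without CF 1 the value was -7.48. At least 1 MT2A UMI was found in 14.3%, 2.73% and 2.07% of CF acinar cells and in 34.7%, 85.2%, 71.8% and 70.3% of control acinar cells. MT2A also fell in duct cells, by 3.98 on the log2 scale, and did not pass the test in endocrine or immune cells.

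**Figure D3:**
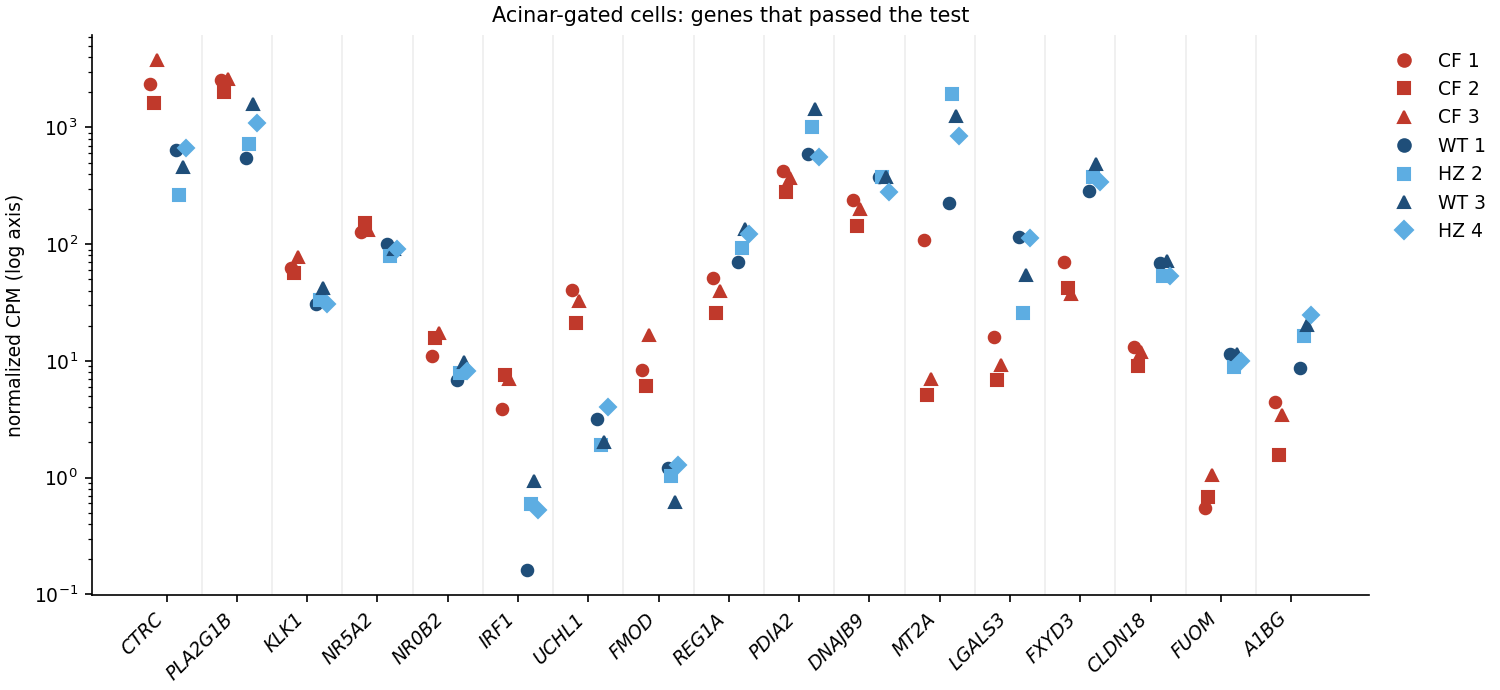
Levels of 17 genes that passed the test in gated acinar cells (normalized CPM, log axis), 1 point per animal, CF in red and controls in blue. CTRC, IRF1 and UCHL1 lie higher in every CF animal than in every control, and FXYD3, CLDN18, FUOM and MT2A lie lower.

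The count of changed acinar genes depended on single animals. Leaving out 1 animal gave 896 genes without CF 1, 210 without CF 2, 173 without CF 3, 292 without HZ 2, 329 without HZ 4, 826 without WT 1 and 302 without WT 3, with rises from 48.4% of the calls without CF 1 to 72.8% without CF 3, and all 594 genes kept their direction wherever they were tested. The groups did not overlap for 588 of the 594, so that leaving out an animal could hardly turn a direction. Of 40 named acinar genes, 24 lost their call against the WT controls alone, 17 without CF 3 and 14 without CF 2, while BAG3, CTRC, IRF1, UCHL1, FMOD, FXYD3, CLDN18 and FUOM were among those that passed each time. Scaling by library totals in place of TMM gave 264 genes up and 90 down. This raised the share of rises from 55.4% to 74.6% and moved the median log2 fold change of all genes from -0.02 to 0.10.

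Endocrine cells of the CF fetuses differed in a hormone, in imprinted genes and in genes of the cells low in measured hormones. GIP, the incretin hormone of intestinal K cells, stood at 758, 76.0 and 164 CPM in CF 1, CF 2 and CF 3 and at 11.1, 17.7, 29.1 and 3.56 CPM in WT 1, HZ 2, WT 3 and HZ 4 (log2 fold change 4.48, SE 0.780, adjusted p = 0.0265). All CF animals lay above all controls. The UMIs came from few cells: those with at least 10 GIP UMIs numbered 6, 4 and 17 in CF 1, CF 2 and CF 3 and 1, 2, 3 and 1 in the controls, and the single highest cell held 45.4%, 48.7% and 18.8% of the GIP UMIs of its CF animal. The call was lost without CF 3 (4.81), HZ 2 (4.57) or HZ 4 (4.11) and against the WT controls alone (4.06), and without CF 1 the value fell to 3.07 and passed. GIP was the 1 of 9 islet and gut hormones tested that passed.

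PHLDA2, an imprinted gene that restrains placental growth, was at 99.2, 256 and 199 CPM in CF endocrine cells and at 12.5, 12.9, 12.6 and 11.9 CPM in control endocrine cells. This was a 15.0-fold difference (log2 fold change 3.91, SE 0.274, adjusted p = 0.000218) with all CF animals above all controls. At least 1 PHLDA2 UMI was found in 17.9%, 15.8% and 12.6% of CF endocrine cells and in 5.49%, 4.13%, 4.82% and 4.02% of control endocrine cells. Most of its UMIs lay in few cells low in the 4 measured hormones, which held 215 of 231, 1397 of 1472 and 1803 of 1905 PHLDA2 UMIs in CF 1, CF 2 and CF 3. Endocrine cells with at least 10 PHLDA2 UMIs numbered 4, 26 and 25 in the CF animals and 1, 1, 1 and 2 in the controls. On low-hormone cells alone the log2 fold change was 4.37 (adjusted p = 3.85e-06), and on GCG cells alone PHLDA2 did not pass (2.67, adjusted p = 0.0729). PHLDA2 also rose in duct cells, by 1.69 on the log2 scale, and did not pass the test in acinar or stromal cells. GRB10, an imprinted adaptor that dampens insulin and IGF signalling, was at 26.6, 55.8 and 43.7 CPM against 16.4, 18.3, 18.3 and 13.4 CPM (log2 fold change 1.39, adjusted p = 0.0186). These were the 2 of 18 imprinted growth genes tested that rose, and 15 of the 18 were fitted higher (median log2 fold change 0.22). ZDBF2, an imprinted gene not on that list, was at 147, 177 and 286 CPM against 57.5, 22.4, 34.2 and 34.3 CPM (log2 fold change 2.46, adjusted p = 0.00469). Cloned tissue is known for altered expression of imprinted genes, and cloning and CFTR status cannot be told apart here.

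CALCRL, the receptor component for adrenomedullin and CGRP, rose 20.0-fold from a low level, standing at 11.2, 15.0 and 13.3 CPM against 0.924, 0.299, 0.571 and 0.678 CPM (log2 fold change 4.32, SE 0.315, adjusted p = 0.000218). At least 1 CALCRL UMI was found in 15.7%, 19.3% and 14.3% of CF endocrine cells and in 1.16%, 0.413%, 0.803% and 0.524% of control endocrine cells. Acinar cells held at least 1 CALCRL UMI in at most 0.838% of cells in any animal. The median acinar cell held more UMIs than the median endocrine cell in CF 2 (20576 against 15654) and CF 3 (24508 against 14460) and fewer in CF 1 (11845 against 21802.5). Endothelial cells, where CALCRL is strong, held a mean of 553 CPM in CF and 470 CPM in controls. The part of free endothelial RNA in the endocrine values was not tested.

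SLC2A2, the glucose transporter of beta cells, stood at 12.9, 36.9 and 19.7 CPM in CF endocrine cells and at 53.6, 73.9, 91.6 and 80.9 CPM in control endocrine cells (log2 fold change -1.64, SE 0.289, adjusted p = 0.0275). The groups did not overlap. Its UMIs lay in the cells low in the 4 measured hormones, where 25.0%, 34.5% and 24.9% of CF cells and 53.7%, 49.5%, 66.1% and 45.7% of control cells held at least 1, against at most 0.8% of GCG cells. In a fit on the low-hormone cells alone, chosen after the data were seen, the log2 fold change was -1.30 (adjusted p = 0.0280). Over all endocrine cells the call was lost without CF 3 (-1.50), HZ 2 (-1.65), WT 3 (-1.53) or HZ 4 (-1.59), against the WT controls alone (-1.59) and with library totals in place of TMM (-1.49).

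The lists of secretory granule, hypoxia and interferon genes gave 1 call each in endocrine cells. Over all endocrine genes 0.703% rose and 0.509% fell. Of 25 genes of the secretory granule and of hormone processing only ERO1B, the oxidase that drives disulfide bonding of proinsulin, fell, by 0.92 on the log2 scale, and 12 of the 25 were fitted higher. The hypoxia list gave 1 of 23 up (EGLN3, 1.98) and the interferon list 1 of 24 down (IFI6, -1.004).

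The linker histone genes H1-2 and H1-4 and the cell-division gene BIRC5 fell in endocrine cells. H1-2 (59.7, 29.4 and 37.8 CPM against 88.5, 143, 133 and 209 CPM) and H1-4 fell by 1.81 and 1.69 on the log2 scale. BIRC5, a mitotic regulator, fell by 1.22 and was the 1 of 16 cell-division genes that passed, while 0 of the 16 were fitted higher and their median log2 fold change was -0.75. The share of dividing endocrine cells did not differ beyond the spread of the animals. APOH, a plasma glycoprotein, was at 0.859, 1.39 and 1.15 CPM against 10.4, 8.38, 18.8 and 12.7 CPM (log2 fold change -3.38, adjusted p = 0.00358). ID1, a target of BMP signalling, fell by 1.56 on the log2 scale, DPP10, a potassium channel subunit, by 1.72, and SLIT3, a guidance ligand named after its values were seen, by 1.42.

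**Figure D4:**
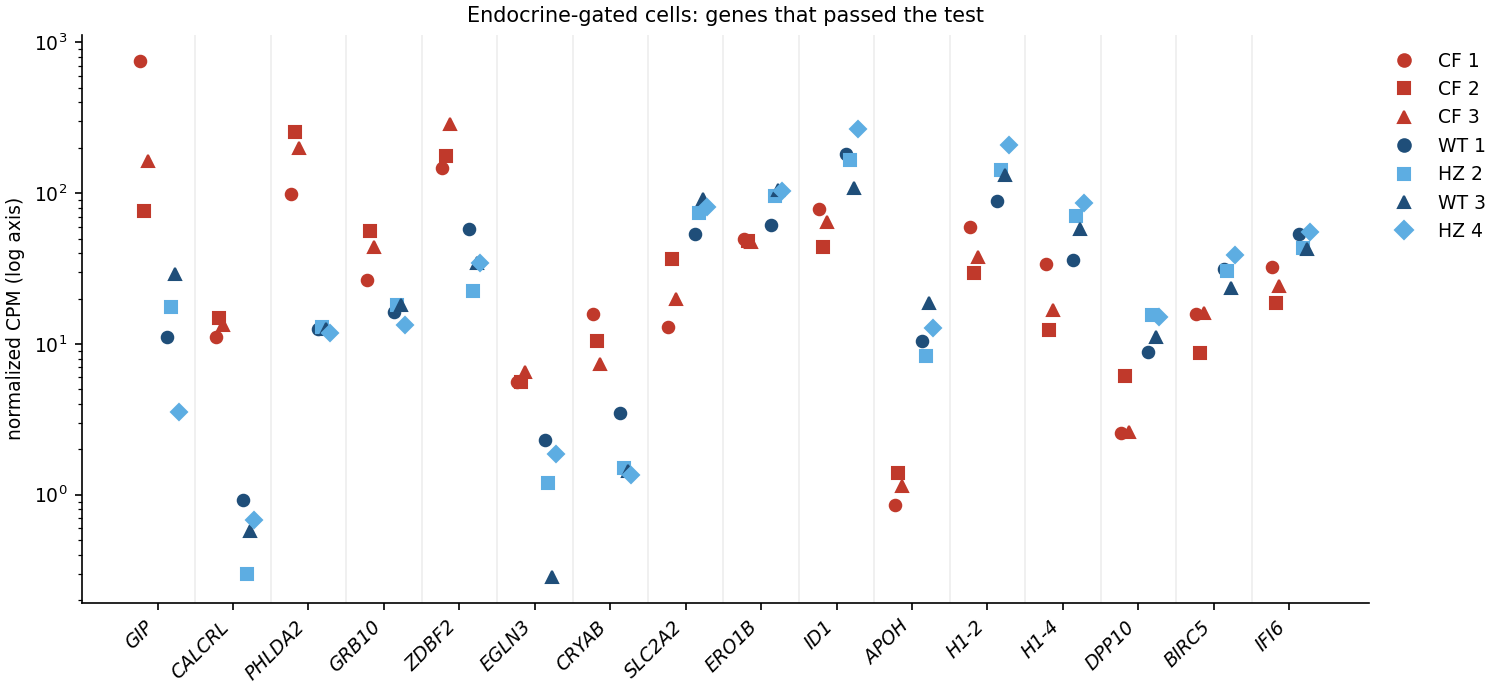
Levels of 16 genes that passed the test in gated endocrine cells (normalized CPM, log axis), 1 point per animal, CF in red and controls in blue. GIP, PHLDA2, CALCRL and ZDBF2 lie higher in every CF animal than in every control, and SLC2A2 and APOH lie lower.

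The endocrine counts rested on single animals more than the acinar counts did. They were 810 genes without CF 1, 39 without CF 2, 23 without CF 3, 42 without HZ 2, 45 without HZ 4, 205 without WT 1 and 72 without WT 3, against 150 with all 7 animals, and rises were 43.5% of the calls without CF 1 and 69.6% without CF 3. With library totals in place of TMM the calls were 131 up and 34 down, a share of rises of 79.4% in place of 58.0%, and the median log2 fold change of all genes moved to 0.13. With DESeq2 45.3% of 320 calls were rises. Of 20 named endocrine genes, 17 lost their call against the WT controls alone, 12 without CF 2, 14 without CF 3, 15 without HZ 2, 14 without HZ 4 and 10 without WT 3. CALCRL and APOH passed under every alternative fitted, and PHLDA2 in all but the fit on GCG cells alone (2.67).

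In immune cells the rises were mostly heat-shock genes. Beside BAG3, HSPA6 stood at 7541, 3731 and 4265 CPM in CF 1, CF 2 and CF 3 and at 710, 263, 456 and 496 CPM in WT 1, HZ 2, WT 3 and HZ 4 (log2 fold change 3.43, adjusted p = 0.00694). DNAJA4, HSPB8, HSPA1B and HSPA1L also rose, by 3.38, 3.82, 3.03 and 3.11, with HSPB8 at 2.75 without CF 1. Of 20 inflammatory cytokines and chemokines, 21 lymphocyte genes, 15 antigen presentation genes and 31 interferon genes tested, 0 passed in either direction, with medians of 0.17, -0.22, -0.06 and -0.23. Over all immune genes 0.196% rose and 0.0413% fell, so that 0 calls do not set lists of this size apart. Of the list of dissociation genes, 7 of 25 rose, each of them a heat-shock gene.

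IGFLR1, a receptor of the TNF receptor family found on lymphocytes, was the gene with a symbol that fell furthest. It stood at 5.87, 5.53 and 4.79 CPM in the CF animals and at 97.4, 46.5, 50.7 and 55.7 CPM in the controls (log2 fold change -3.46, SE 0.341, adjusted p = 0.00694). The fall was also seen in a fit on T and B cells alone (-3.19), in stromal cells (-4.55, mean 0.832 against 19.3 CPM) and in endocrine cells (-2.98). FUOM, a fucose mutarotase, fell to 8.32, 10.1 and 15.3 CPM from 34.5, 41.5, 42.7 and 32.1 CPM (log2 fold change -1.79, adjusted p = 0.0406), a call that leaving out any animal but CF 3 removed, as did the WT controls alone.

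The count of changed immune genes was 23, and it was 11 without HZ 4, 1 without WT 3 and 0 against the WT controls alone, where edgeR gave 551 genes at an unadjusted p under 0.05. All 23 kept their direction there, but none of the 23 overlapped between the groups, so that leaving out controls could hardly turn it. With library totals in place of TMM the calls were 19 up and 9 down, a share of rises of 67.9% in place of 82.6%, and with DESeq2 59.3% of 59 calls were rises. APOA1 and EGFL8 were named after their values were seen. APOA1, the main protein of high-density lipoprotein, was at 154, 92.0 and 172 CPM against 14.2, 21.6, 19.3 and 25.4 CPM (log2 fold change 2.73), and duct cells of the same animals held a mean of 31569 CPM in CF and 7584 CPM in controls. EGFL8 was at 26.4, 22.1 and 29.7 CPM against 8.12, 1.66, 5.34 and 5.45 CPM, and glial cells, a larger share of the CF cells, held a mean of 2447 CPM in CF and 1063 CPM in controls. The part of free RNA from duct and glial cells in these immune values was not tested.

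LYVE1, PPARG, ABCG2 and ASIP fell in macrophages of the CF fetuses, beside the heat-shock rise. WT 1 gave 9 macrophages and was left out, so 3 animals were compared with 3. BAG3 stood at 3410, 1653 and 1086 CPM in CF 1, CF 2 and CF 3 and at 66.4, 88.1 and 106 CPM in HZ 2, WT 3 and HZ 4 (log2 fold change 4.54, adjusted p = 0.00127, and 3.95 without CF 1). LYVE1, the hyaluronan receptor of perivascular macrophages, was at 137, 81.7 and 67.2 CPM against 300.3, 346 and 226 CPM (log2 fold change -1.58, SE 0.291, adjusted p = 0.0392). At least 1 LYVE1 UMI was found in 25.5%, 15.4% and 6.78% of CF macrophages (12, 6 and 4 cells) against 52.4%, 30.3% and 20.5%, shares that overlapped, and 1 cell held 27.5 to 46.7% of the LYVE1 UMIs of its CF animal. PPARG, a lipid-sensing nuclear receptor, was at 27.4, 19.1 and 11.2 CPM against 86.6, 76.8 and 60.1 CPM (log2 fold change -1.89, adjusted p = 0.0426). The summed levels of both genes did not overlap between the groups. The transporter ABCG2 fell by 1.60 on the log2 scale and ASIP, the agouti signalling protein, by 1.67. WT 1, left out here, held almost no ASIP in any lineage. In immune cells as a whole, where WT 1 entered, ASIP did not pass the test.

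Of 26 macrophage genes tested, LYVE1 alone fell, 0 rose and 5 were fitted higher, with a median log2 fold change of -0.35 where that of all genes was near 0. CKS2, a cell-cycle kinase subunit, rose to 80.6, 123 and 80.6 CPM from 5.77, 9.04 and 19.4 CPM (log2 fold change 2.90, adjusted p = 0.00672, and 3.57 without HZ 4), while 0 of 6 cell-division genes tested passed and all 6 were fitted higher, with a median log2 fold change of 1.36. The count of 25 changed genes was 77 without CF 1, 17 without CF 2, 12 without HZ 2, 8 without WT 3 and 3 without HZ 4. Rises were 76.0% of the 25, but 36.4% of the calls without CF 1. Without WT 3 or HZ 4 0 falls passed, so that ASIP too lost its call there. With any animal admitted, WT 1 entered on 9 cells and 13 genes passed, of which 11 rose and 2 fell. PPARG, ABCG2 and LYVE1 lost their calls without CF 2, CF 3, HZ 2, WT 3 or HZ 4, against the WT control alone and with the stricter gate, with log2 fold changes that stayed below 0 each time.

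In endothelial cells 3 genes passed the test, on 35 to 120 cells per animal. HSPA1B was the 1 gene that rose, at 1180, 939 and 344 CPM in CF 1, CF 2 and CF 3 and at 36.9, 36.7, 69.2 and 34.96 CPM in WT 1, HZ 2, WT 3 and HZ 4 (log2 fold change 4.21, SE 0.397, adjusted p = 0.00100). BAG3 was at 675, 281 and 106 CPM against 96.6, 85.7, 76.9 and 74.6 CPM and did not pass (adjusted p = 0.242). Of 39 endothelial receptors, junction proteins and factors 0 passed, with a median log2 fold change of -0.13, and the same held for 15 cell-division genes, of which 0 were fitted higher (median -0.51). Over all endothelial genes 0.0143% rose and 0.0285% fell, so that 0 calls do not set these lists apart. The count of 3 was 78 without CF 1, of which 16.7% were rises, 5 without CF 2, 7 without CF 3 and 8 without WT 1. DESeq2 called 13 genes, of which 53.8% were rises, and library totals in place of TMM gave 4, of which 50.0% were.

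Glial cells were too few in the controls for a firm comparison. Gated cells numbered 237, 54 and 210 in CF 1, CF 2 and CF 3 and 28, 6, 12 and 18 in WT 1, HZ 2, WT 3 and HZ 4. With the minimum of 20 cells only WT 1 remained as a control, and the fit assumes that this lone animal varies like the CF animals. It called 27 of 10109 genes up (0.267%) and 17 down (0.168%). With a minimum of 10 cells, WT 1, WT 3 and HZ 4 entered, and 46 of 5126 genes rose (0.897%) and 15 fell (0.293%). Of the 37 genes called in the first fit that the second also tested, 18 were called in both, all in the same direction. The values that follow are from the second fit unless stated. DESeq2 in place of edgeR moved the share of rises in the first fit from 61.4% to 78.5%, and library totals in place of TMM moved the median log2 fold change of all genes from 0.18 to -0.07. Without CF 1, CF 2 or CF 3 the first fit called 644, 98 and 147 genes.

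The heat-shock and dissociation genes rose in glial cells too. BAG3 stood at 713, 483 and 381 CPM in CF 1, CF 2 and CF 3 and at 79.0, 27.4 and 54.2 CPM in WT 1, WT 3 and HZ 4 (log2 fold change 3.23, SE 0.391, adjusted p = 0.00308), on 13, 3 and 5 UMIs in the controls. With WT 1 as the lone control BAG3 did not pass (2.83, adjusted p = 0.0617). DNAJB1 was at 3459, 3685 and 2845 CPM against 225, 713 and 325 CPM (log2 fold change 3.00) and HSPH1 rose by 2.49. In all, 9 of the 14 heat-shock genes tested and 9 of the 23 dissociation genes tested rose. The latter took 3.52 to 4.04% of CF glial UMIs and 0.880 to 2.55% of those of WT 1, WT 3 and HZ 4. In the 6 glial cells of HZ 2 they took 3.31%, and with HZ 2 added 5 dissociation genes were called.

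Of the glial genes themselves, CRYAB, a small heat-shock protein also made by Schwann cells, was the 1 of 25 genes of the Schwann cell lineage that rose, at 1944, 1066 and 968 CPM against 109, 366 and 141 CPM. STMN2, a tubulin-binding protein of growing neurites, rose by 3.28 on the log2 scale and was the 1 of 4 neuron genes tested that passed, though it did not pass with WT 1 as the lone control (adjusted p = 0.151). CTGF, a matrix-cell signal induced by TGF-beta and by stretch, was at 211, 439 and 375 CPM in CF animals, at 18.2 and 36.6 CPM in WT 1 and WT 3 and at 0 UMIs in HZ 4 (log2 fold change 4.14, adjusted p = 0.00463). TGFBR3, a TGF-beta co-receptor, passed in this fit alone (log2 fold change 1.497, adjusted p = 0.00926), and not with WT 1 as the lone control (1.56, adjusted p = 0.127) or with HZ 2 added (1.16, adjusted p = 0.107). PDGFB, the ligand that recruits mural cells, fell to 7.43, 7.71 and 12.3 CPM from 97.3, 91.4 and 43.4 CPM (log2 fold change -3.07, adjusted p = 0.00675), on 16, 10 and 4 control UMIs. All 16 cholesterol synthesis genes tested were fitted higher, with a median log2 fold change of 1.00 against 0.08 over all genes, and 0 passed the test.

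TNC, PDLIM1, VCAN and HAS2 were among the falls in glial cells. TNC, the tenascin of nerve repair, was at 32.4, 69.4 and 37.6 CPM against 243, 110 and 130 CPM (log2 fold change -1.97, adjusted p = 0.0365), the 1 of 14 nerve repair and activated stellate genes tested that passed. It did not pass with WT 1 as the lone control (adjusted p = 0.0519) or with HZ 2 added (adjusted p = 0.153), where HZ 2 held 0 UMIs and the groups overlapped. PDLIM1, a cytoskeletal adaptor, was at 38.2, 38.5 and 33.0 CPM against 334, 210 and 184 CPM (log2 fold change -2.77). VCAN and HAS2, which make versican and hyaluronan and were named after their values were seen, fell by 2.48 and 3.04 on the log2 scale, VCAN from 359, 274 and 314 CPM to 55.7, 59.1 and 56.3 CPM. With HZ 2 added, on 6 cells, PDLIM1 (-2.49, adjusted p = 0.0111) and VCAN (-2.19, adjusted p = 0.0122) still passed, but HZ 2 stood at 35.04 CPM for PDLIM1 and 52.6 CPM for VCAN, on 2 and 3 UMIs, so that the groups overlapped. In the fit with WT 1 as the lone control, TGFB2 held 22, 11 and 21 UMIs in the CF animals and 49 in WT 1, and ST6GAL2 held 5, 2 and 2 against 26. Without ribosomal protein genes the glial sums were 2161368, 386844 and 1595171 UMIs in CF 1, CF 2 and CF 3 and 158260 in WT 1. The fitted log2 fold changes were -4.18 for TGFB2 and -5.86 for ST6GAL2. TGFB2 was not called in the fit with at least 10 cells per animal. ASIP and EGR1 held 0 UMIs in WT 1, so their fitted rises against WT 1 alone depend on the prior count and no fold is given.

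Some genes were lower in CF cells whatever the lineage. FUOM was lower in every lineage fitted, with log2 fold changes from -3.92 in duct to -1.42 in endocrine cells, and the CF and control animals that entered each fit did not overlap. HZ 2, left out of both glial fits, held 0 FUOM UMIs in its 6 glial cells. In acinar cells it stood at 0.553, 0.685 and 1.06 CPM against 11.5, 8.82, 11.5 and 10.0 CPM (adjusted p = 0.000292). It passed the test in acinar, immune, duct and stromal cells and in macrophages, and not in endocrine, endothelial, glial or mural cells. LOC101103163, an unnamed locus chosen after its values were seen, was lower in each of the 8 fits that tested it, with log2 fold changes from -4.17 to -3.01. In endothelial cells it was 1.28, 2.10 and 1.89 CPM against 34.1, 18.4, 25.6 and 34.96 CPM. The CF animals share a cloned genome, so a difference between genomes and an effect of CFTR status cannot be told apart.

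LOC101117443, also chosen after its values were seen, is the most abundant transcript of the acinar cells. With ribosomal protein genes left out of the total, it took 30.3%, 16.0% and 21.1% of CF acinar UMIs and 26.3%, 31.4%, 37.3% and 26.0% of control acinar UMIs. It did not pass the test in acinar cells (log2 fold change -0.50). In other lineages it was present at a low level and lower in CF, at 405, 497 and 336 CPM against 2288, 2228, 2101 and 1121 CPM in endothelial cells (log2 fold change -2.23) and with -2.05 in immune, -2.12 in endocrine and -2.35 in duct cells. Acinar cells were 7.28 to 30.3% of CF cells and 26.5 to 41.0% of control cells. The part of free acinar RNA in these values was not tested.

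ASIP, the agouti signalling protein of pigmentation, set 1 control apart. WT 1 held almost none of it in any lineage, whereas the other 3 controls were above the CF animals. In macrophages, from which WT 1 was left out, ASIP was at 225, 163 and 170 CPM in CF 1, CF 2 and CF 3 and at 384, 655 and 743 CPM in HZ 2, WT 3 and HZ 4. With WT 1 among the controls the groups overlapped and ASIP did not pass the test in acinar, endocrine, endothelial or immune cells.

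**Figure D5:**
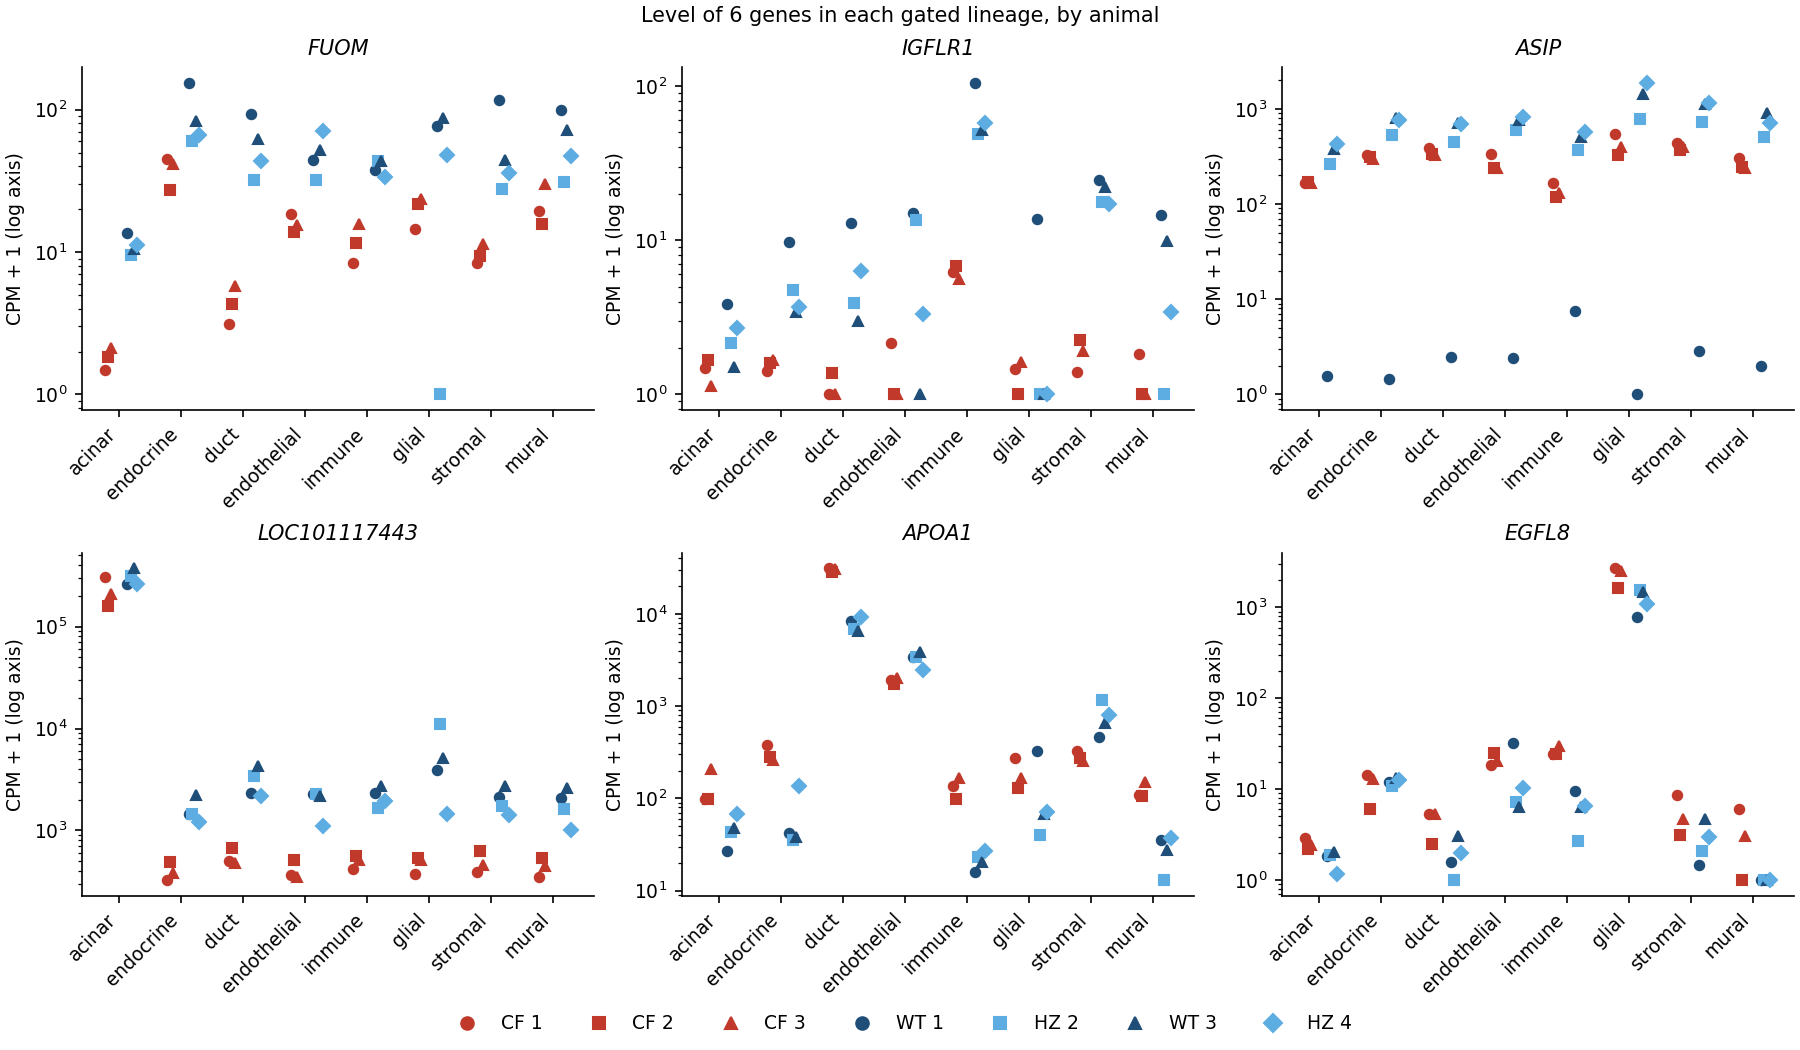
Levels of FUOM, IGFLR1, ASIP, LOC101117443, APOA1 and EGFL8 (CPM + 1, log axis) in each gated lineage (horizontal axis), 1 point per animal, CF in red and controls in blue. FUOM lies lower in the CF animals in every lineage except against HZ 2 in glial cells, where HZ 2 has 6 cells, and ASIP is near 0 in WT 1 throughout.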

How the data were processed

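Fetal sheep pancreas was dissociated enzymatically, red cells were lysed and the suspension was strained before droplet 3′ single-cell RNA sequencing. The authors deposited raw UMI counts per gene and barcode, made per the labels with Cell Ranger 3.1.0 on the Oar_v4.0 sheep genome. These counts carry no normalization. Of the 24478 genes, 497 were named from the RefSeq gene table by accession or locus and 77 from the study's own gene table. Sequences were not analysed here.

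Cells were gated in Python 3.11.15 (scanpy 1.11.5, scipy 1.17.1, numpy 2.4.6) by the mean log-normalized level of fixed markers, with cut-offs set at valleys of the pooled scores after seeing them. Endocrine cells were split by the highest of GCG, SST, PPY and GHRL at 10000 CPM or more. Scrublet scores were used only in an alternative, which removed the highest-scoring cells at 0.8% per 1000 barcodes. UMIs were summed per animal and lineage for animals with at least 20 gated cells. The 82 ribosomal protein genes were left out, as in the study, with their share of UMIs given in the report.

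Sums were tested with edgeR 4.0.16 (R 4.3.3) by the quasi-likelihood test with TMM scaling and filterByExpr, and p-values were adjusted by Benjamini-Hochberg over all genes of a lineage at 0.05. DESeq2 1.42.0 was an alternative. Shares of cells were compared by an exact two-sided permutation test over animals, which can go no lower than 0.0571 for 3 against 4 and 0.100 for 3 against 3, so that no share could pass at 0.05. Intervals and limits from counts cover counting error only. The animals are separate fetuses, but some share a pregnancy.

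The comparison, its gene lists and its markers were chosen with earlier results of these data known. Genes were named when they were among the 6 largest rises or falls of a lineage with an adjusted p of at most 0.05, no overlap between groups, a mean of at least 10 CPM in the higher group and a symbol, excluding gate genes and abundant acinar and hormone genes outside their own lineage, or when they were list members that passed. Others are marked as chosen after their values were seen. CTGF is the symbol used in the files. The tests were run on counts simulated from the same libraries with 200 changed genes and the same fixed spread between animals for every gene. Alternatives covered scaling, the low-count filter, WT controls alone, donor number as a block, gate strictness, doublets, ribosomal genes and each animal left out. Alternatives on minimum cell numbers, endocrine and immune subclasses and the denominator of shares were added after seeing the data. Some items are not reported here.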

Additional observations from a re-analysis of the deposited data

Results flagged for a closer look

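Among 58 values tested for a control animal that stands apart from the other 3, by Dixon's test at 95%, 7 did so, where chance alone gives about 1 in 20. WT 1, the control outside the triplet, accounted for 4. Its acinar share was 41.0%, against 26.5 to 28.5% in the other controls, and its mural share was 5.38%, against 1.75 to 2.37%. In WT 1 the small heat-shock gene CRYAB stood at 3.46 CPM in endocrine cells, against 1.36 to 1.496 CPM, and the co-chaperone gene DNAJA4 at 60.9 CPM in immune cells, against 18.7 to 23.3 CPM. Both of these genes were higher still in all 3 CF animals. HSPA1B stood at 69.2 CPM in the endothelial cells of WT 3, against 34.96 to 36.9 CPM in the other controls. The share of dividing duct cells was 2.13% in WT 3, against 8.91 to 9.91%, and that of dividing mural cells was 0% in HZ 2, against 5.80 to 6.94%.

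Among the acinar, endocrine, endothelial, immune, macrophage and glial calls, with duct, stromal and mural cells left aside, 3 genes were called in opposite directions in 2 lineages. GADD45A, a stress-induced growth arrest gene chosen by this contrast, had a log2 fold change of -1.32 in acinar cells and of 3.62 in glial cells (2.67 with at least 10 glial cells per animal). SLIT3 had -1.42 in endocrine cells and 3.08 in glial cells with at least 10 cells per animal. ASIP had -1.67 in macrophages and a fitted 11.84 in glial cells against WT 1 alone. WT 1 held 0 UMIs, so the latter depends on the prior count, and with more controls in the glial fit ASIP did not pass and was fitted lower, at -1.16 with at least 10 cells per animal and at -1.01 with HZ 2 added. The differences between lineages were not tested.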

How the results depend on the processing

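Counts of changed genes depended on the settings. Their direction mostly held, but most called genes did not overlap between the groups, so that it could hardly turn. DESeq2 called 320 endocrine, 13 endothelial, 59 immune, 40 macrophage and 79 glial genes. Without the low-count filter the counts were 305 endocrine, 136 endothelial, 51 immune, 176 macrophage and 333 glial genes. With library totals in place of TMM 354 acinar and 26 glial genes passed. Against the WT controls alone 156 acinar, 19 endocrine and 0 immune genes passed, with 551 immune genes at an unadjusted p under 0.05 in edgeR. For macrophages that left WT 3 as the lone control, assumed to vary like the CF animals, and 2 genes passed. The stricter gate and the removal of the highest doublet scores each gave 5 endothelial genes. Cells low in all 4 hormones gave 41 genes, and admitting any animal with a macrophage gave 13. With the minimum lowered to 10 glial cells, 61 glial genes passed, which is within 1.5 times the count of 44. Leaving out 1 animal gave 173 to 896 acinar, 23 to 810 endocrine, 4 to 78 endothelial, 1 to 26 immune, 3 to 77 macrophage and 98 to 644 glial genes. The cause of these shifts was not tested beyond the smaller number of animals or genes.

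With the donor number as a replicate block, 97 acinar, 14 endocrine, 3 endothelial, 90 macrophage and 0 immune genes passed (340 immune genes at an unadjusted p under 0.05). The numbers only name the animals and do not pair CF with control fetuses. Deviations of same-numbered animals correlated at -0.175 to -0.0371 in acinar, -0.108 to -0.0532 in endocrine and -0.404 to 0.0666 in immune cells. Differently numbered animals ranged from -0.260 to 0.416 in immune cells, so that these correlations cannot decide whether animals are pairs. The glial fit with a block, and the one without WT 1, could not be fitted.

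Of 1799 alternative values for named genes, 1312 kept direction and call, 437 lost the call, 48 gained it and 2 reversed. Both were ASIP in glial cells, at -1.16 with at least 10 cells per animal and at -1.01 with any animal. Most named genes had no overlap between the groups, so that few could reverse. Of 325 alternative values for shares, none of which could pass the test, 35 changed sign. Against WT alone the difference (CF minus control, percentage points) was -0.247 for endothelial and -0.0694 for mural cells, and among dividing cells 0.902 for duct, -2.29 for endothelial, -1.13 for immune and 0.658 for stromal cells. The stricter gate gave -0.982 for macrophages among immune cells, 0.728 for dividing B cells and -0.814 for dividing endothelial cells, which were at -1.304 with doublets removed and at -1.07 with under 10% mitochondrial UMIs. Leaving out 1 animal gave -6.71 to 1.297 for endocrine, -0.161 to 0.9004 for endothelial, -0.511 to 3.18 for immune, -0.142 to 3.98 for stromal, -0.599 to 1.62 for mural and -0.0565 to 1.46 for erythroid cells. It gave -5.13 to 5.42 for macrophages and -11.0 to 1.60 for B cells among immune cells, and -0.518 to 2.92 for SST cells among endocrine cells. For dividing cells it gave -0.638 to 1.77 in acinar, -1.44 to 2.86 in endothelial, -1.81 to 2.18 in immune, -0.841 to 0.874 in stromal and -6.61 to 0.874 in B cells. The glial and duct shares kept their sign throughout.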

Other observations

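Immune cells that met no marker gate for macrophages, T cells, B cells or granulocytes were led by TPSB2 and KIT, the tryptase and the stem cell factor receptor of mast cells, among others. They were 36.6%, 28.5% and 39.9% of immune cells in CF 1, CF 2 and CF 3 and 28.2%, 37.9%, 26.2% and 32.2% in WT 1, HZ 2, WT 3 and HZ 4. The groups overlapped (exact two-sided permutation p = 0.4).

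Some of the gene lists examined were described above for only part of the lineages, and values for 3 of them follow. Nuclear genes of the respiratory chain gave 0 calls in all 6 lineages by edgeR, with medians from -0.15 in macrophages to -0.01 in immune cells, and in glial cells of 0.04 against WT 1 alone and -0.04 with at least 10 cells per animal. Imprinted growth genes, many of which act on fetal growth, were fitted higher in CF for 8 of 14 tested in endothelial cells, 9 of 14 in immune cells, 5 of 5 in macrophages and, with at least 10 glial cells per animal, 8 of 12 in glial cells, with 0 calls in these 4 lineages. Cholesterol synthesis genes were fitted higher for 1 of 12 in macrophages, 6 of 12 in endothelial and 9 of 19 in immune cells, again with 0 calls.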
